A study of Mus musculus with 12 samples.

Results

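Antiviral interferon-stimulated genes encode the proteins by which a cell senses and restricts viruses once it has met interferon. The 40 mouse genes described here were a list of known genes of this kind, given by name. The list was drawn up with earlier results of these data known. Of these, 38 had a probe on the array that could be named, and all 38 passed the filter on dim probes and were tested, among 13113 genes tested in all. The tested probe of each of the 38 was well above background on all 12 arrays, so no member entered through 1 group alone. Mx1 and Mx2, dynamin-like GTPases that block viral replication, matched no probe through the gene table used and were not analysed here.

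Levels came from bone marrow-derived macrophages of male C57BL6 mice aged 6 to 8 weeks, which carried (ERRα+/+) or lacked (ERRα-/-) the orphan nuclear receptor ERRα, encoded by Esrra. The marrow cells had been grown for 5 to 7 days with macrophage colony-stimulating factor, and then received either PBS as the solvent control or lipopolysaccharide (LPS) at 100 ng/mL. LPS is a bacterial wall component that activates the receptor Tlr4. How long LPS was given, how the Esrra allele was made and whether each replicate came from its own mouse are not given in the sources used here. All p-values therefore measure the spread between these samples, which may be technical. Each of the 4 groups had 3 one-colour Agilent arrays, and replicate 1 of every group lay on slide 1 while replicates 2 and 3 lay on slide 2. The design asks how macrophages with and without ERRα respond to LPS.

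In macrophages, Tlr4 signals through the adaptor Ticam1 and the kinases Tbk1 and Ikbke to Irf3, which switches on Ifnb1. The secreted interferon binds the receptor Ifnar1 and Ifnar2, and kinases at the receptor activate Stat2. Stat2 and Irf9 belong to the complex ISGF3, which binds the interferon-stimulated response element (ISRE) in the promoters of antiviral genes. Irf7 adds to later interferon production, and Socs1 and Usp18 damp receptor signalling.

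The ISRE is the letter pattern through which ISGF3 acts. Shown first are promoters of members that all hold its core before the transcript start. Each stretch comes from the RefSeq promoter table of mouse build GRCm38.p6, runs 5′ to 3′ in the direction of the gene, lies before the transcript start, and has every match to the ISRE core (GAAA, then 2 bases of any kind, then GAAA), on either strand, in capitals.
Ifit1, chr19:34640760-34640838, plus strand: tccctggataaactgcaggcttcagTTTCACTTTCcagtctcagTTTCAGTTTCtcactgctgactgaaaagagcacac
Ifit3, chr19:34583348-34583441, plus strand: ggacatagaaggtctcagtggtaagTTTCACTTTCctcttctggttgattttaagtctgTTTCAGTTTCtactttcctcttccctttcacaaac
Ifit3b, chr19:34607744-34607837, plus strand: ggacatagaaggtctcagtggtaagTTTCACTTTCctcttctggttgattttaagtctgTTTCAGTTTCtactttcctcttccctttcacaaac
Isg15, chr4:156200850-156200921, minus strand: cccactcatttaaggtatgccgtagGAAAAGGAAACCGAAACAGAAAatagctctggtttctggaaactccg
Rsad2, chr12:26456538-26456597, minus strand: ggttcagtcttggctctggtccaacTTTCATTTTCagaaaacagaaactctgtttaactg
Oas1a, chr5:120907526-120907570, minus strand: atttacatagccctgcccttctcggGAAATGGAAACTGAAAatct
Oas3, chr5:120777700-120777759, minus strand: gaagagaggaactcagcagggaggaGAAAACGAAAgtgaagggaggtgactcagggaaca
Bst2, chr8:71537562-71537627, minus strand: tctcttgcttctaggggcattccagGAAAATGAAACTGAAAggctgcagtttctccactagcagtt
The Ifit1, Ifit3 and Ifit3b stretches each held 2 matches read on the opposite strand. The printed stretches of Ifit3 and Ifit3b were identical over all 94 bases, and their first matches began 34 bases before their second in both. Over the whole overlap of the windows, 201 of 268 bases were identical. In Isg15 3 matches overlapped, and in Oas1a and Bst2 2 matches did. The table had a window, 250 bases before to 50 after a start, for 29 of the 40 genes. An ISRE core match stood in 14 of these 29 genes (48.3%), compared with 1079 of 27025 genes in the whole table (3.99%). Counting only the 250 bases before the start, 10 of 29 (34.5%) and 936 of 27025 (3.46%) had one. The remaining matches of Ifih1, Eif2ak2, Ddx58 and Trim21 lay after the start. Of the 10, Stat2 and Trim30a are not printed above. Ifit2, Cmpk2, Oasl1, Herc6 and Ifi44, whose differences are among the largest below, had a window without an ISRE core match. The GAS pattern TTCNNNGAA, the element named for interferon-gamma activation, was found in 6 of 29 genes (20.7%) against 9.55% of all genes, and the NF-kB element in 5 of 29 (17.2%) against 9.55%. Some matches of different patterns overlapped, as in the Bst2 promoter. These are letter matches and were not tested for binding.

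**Figure D1:**
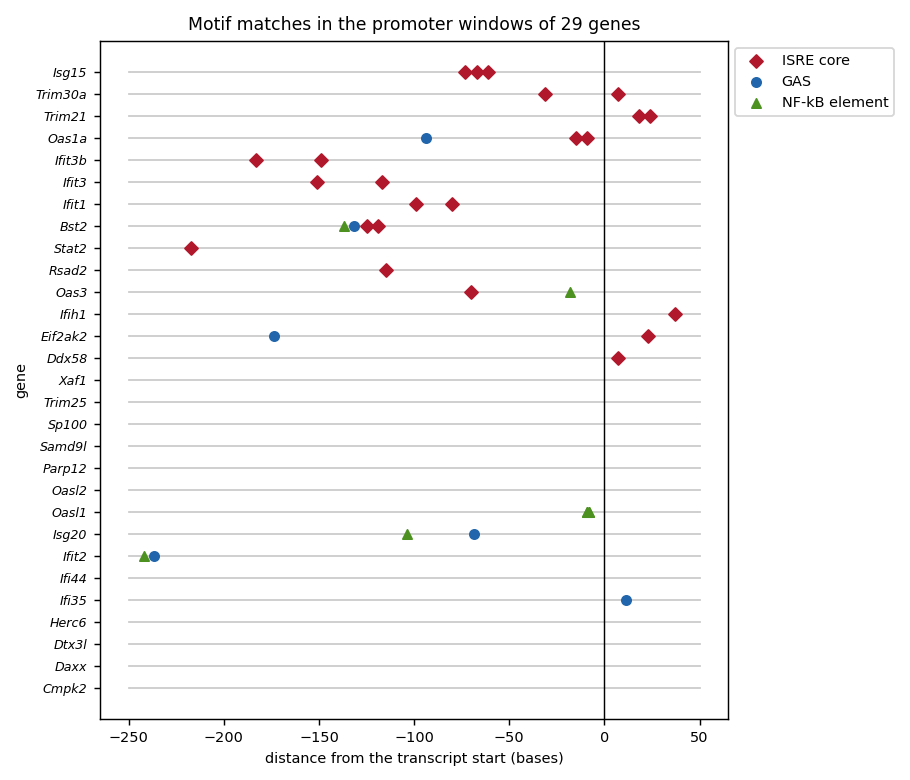
Positions of motif matches in the promoter windows of the 29 genes with a window; the horizontal axis is the distance of a match's centre from the transcript start in bases, each grey line is the window of a gene (windows of a gene with several starts are drawn over each other), and symbols mark the ISRE core, GAS and NF-kB element. ISRE core matches stand in 14 of the 29 genes and lie before the start in 10.

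All signals below are log2 values of the array's processed signal relative to the 75th percentile of that array, so a difference of 1 log2 unit is a fold change of 2; levels are compared between arrays of 1 gene and not between genes. The knocked-out gene was checked first. Esrra read 4.39 to 4.68 in ERRα+/+ cells under PBS, and 2.48, 0.25 and 0.15 in ERRα-/- replicates 1, 2 and 3. Under LPS it read 5.87 to 6.36 in ERRα+/+ cells, and 4.40, 3.92 and 3.83 in ERRα-/- cells. The genotypes did not overlap within either treatment, and ERRα-/- replicate 1 was the highest of its group under both. Its LPS value of 4.40 lay within the ERRα+/+ PBS range. Whether the Esrra probe lies in the deleted part is not given. Between 45.3% and 56.7% of the probes on an array stood well above background, and none was saturated. Spots of 1 probe varied by 3.50% to 4.50% (coefficient of variation) on 10 arrays, but by 11.95% on ERRα+/+ PBS replicate 2 and 7.95% on replicate 3. The macrophage markers Adgre1 and Csf1r were well above background on all 12 arrays. Fewer cells of a type and less RNA per cell cannot be told apart in these bulk samples. Summed over the 9 macrophage markers measured, the linear signal relative to the 75th percentile was 824 to 1436 in ERRα+/+ and 1123 to 1577 in ERRα-/- cells under PBS, with the lowest value of each on slide 1. It was 1544 to 1862 and 1620 to 2051 under LPS.

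LPS raised nearly the whole set in both genotypes. In ERRα+/+ cells 37 of the 38 members rose and none fell (limma, adjusted p from 2.67e-06 for Rsad2 to 0.0104 for Bst2), whereas 22.2% of all 13113 genes rose and 23.7% fell. In ERRα-/- cells 37 of 38 rose (limma, adjusted p from 7.73e-06 to 0.0218), against 25.1% of all genes that rose and 25.3% that fell. The median difference of the members was 3.34 in ERRα+/+ and 2.88 in ERRα-/- cells, where the median of all genes was 0.02 and 0.05. The member outside the call was Trim25 in both. By replicate pair the median of the members was 2.55, 3.92 and 3.63 in ERRα+/+ cells and 2.04, 3.33 and 3.30 in ERRα-/- cells, so the pair on slide 1 gave the lowest median in each genotype.

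**Figure D2:**
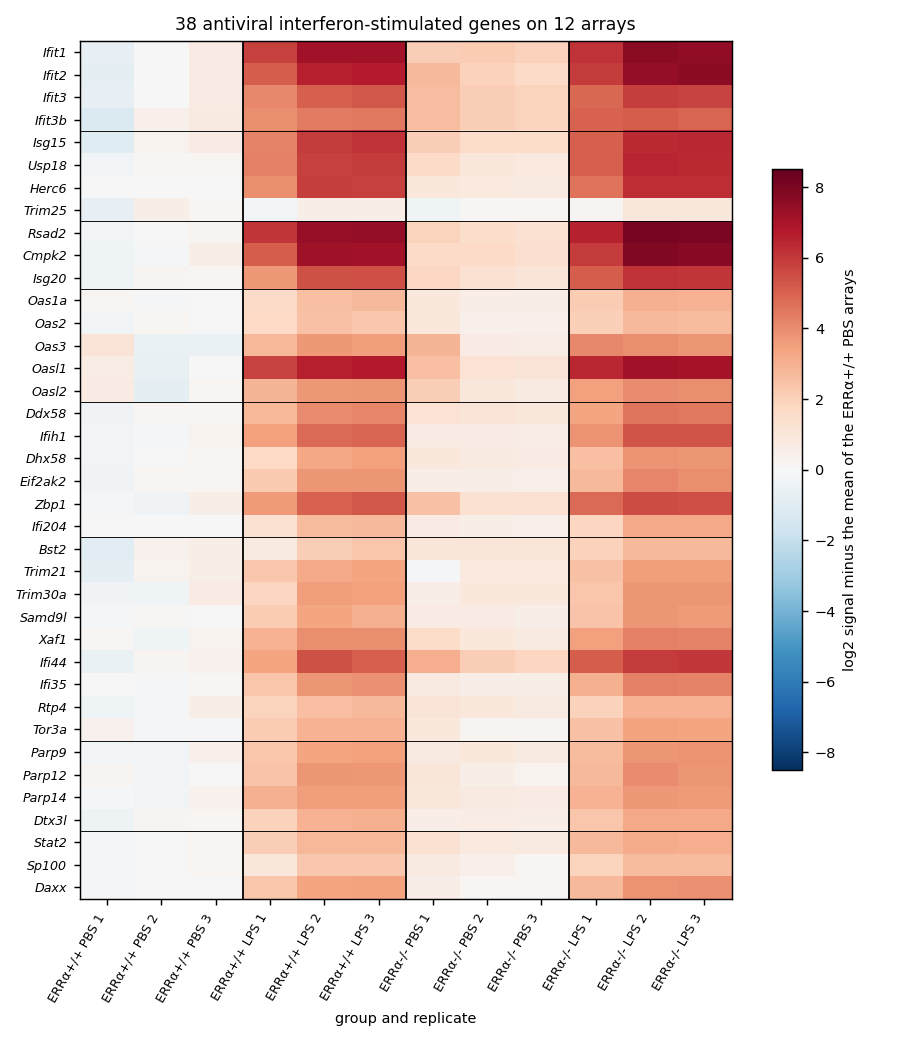
Log2 signal of the 38 members (rows, grouped by role, with thin lines between roles) on the 12 arrays (columns), each minus the gene's mean on the 3 ERRα+/+ PBS arrays; red is higher and blue lower. Every member but Trim25 lies above its ERRα+/+ PBS mean in every LPS column. Trim25 lies below it on ERRα+/+ LPS replicate 1 and above it on the other LPS arrays. Most ERRα-/- PBS columns are pale red.

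The 5 largest differences in ERRα+/+ cells were those of Rsad2, Ifit1, Cmpk2, Oasl1 and Ifit2, and in ERRα-/- cells those of Rsad2, Cmpk2, Oasl1, Ifit1 and Herc6. Rsad2, or viperin, makes a chain-terminating nucleotide and gave the largest difference in both. Its signal on the 3 arrays was 1.37, 1.63 and 1.85 in ERRα+/+ cells under PBS and 7.69, 9.003 and 9.08 under LPS. In ERRα-/- cells it was 3.51, 3.09 and 2.89 under PBS and 8.17, 9.71 and 9.62 under LPS. The rise was 6.98 ± 0.45 (SE, n = 3 per group; 126-fold) and 6.00 ± 0.45 (64.1-fold), with every LPS array above every PBS array of the same genotype.

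Cmpk2, a mitochondrial nucleotide kinase whose gene neighbours Rsad2, followed the same order of groups. It read 0.69, 0.83 and 1.58 under PBS and 6.21, 8.21 and 8.20 under LPS in ERRα+/+ cells. The ERRα-/- arrays gave 2.68, 2.63 and 2.38 and 6.98, 8.88 and 8.78. Its rise was 6.51 ± 0.60 and 5.65 ± 0.60. Isg20, an exonuclease that degrades RNA, rose by 4.85 ± 0.47 and 4.41 ± 0.47.

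The IFIT proteins bind viral RNA and block its translation, and all 4 members measured rose in both genotypes (medians 5.48 in ERRα+/+ and 4.08 in ERRα-/- cells). Ifit1 was -0.32, 0.41 and 1.09 under PBS and 6.22, 7.54 and 7.50 under LPS in ERRα+/+ cells. In ERRα-/- cells it was 2.49, 2.52 and 2.36 and 6.51, 8.08 and 7.96. All 3 ERRα-/- PBS arrays thus stood above the highest ERRα+/+ PBS array, while the LPS arrays of both genotypes overlapped.

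Ifit2 gave -0.66, 0.10 and 0.79 and, under LPS, 5.23, 6.71 and 6.74 in ERRα+/+ cells. Its ERRα-/- arrays were at 2.83, 2.03 and 1.73 and 6.01, 7.52 and 7.65. Again the PBS arrays of the genotypes were separate and the LPS arrays overlapped. Ifit3 was 1.85, 2.60 and 3.23 under PBS and 6.66, 7.66 and 7.82 under LPS in ERRα+/+ cells. In ERRα-/- cells it was 5.19, 4.66 and 4.47 and 7.44, 8.44 and 8.33. Ifit3b is a close copy of Ifit3 next to it on chromosome 19, with the matching promoter stretch printed above, so the 2 genes' probes may read each other's transcript. For Ifit3b the ERRα+/+ arrays gave -0.89, 0.74 and 1.09 under PBS and 4.24, 4.72 and 4.78 under LPS, and the ERRα-/- arrays 2.94, 2.42 and 2.18 and 5.36, 5.45 and 5.27. Ifit3b was separate between genotypes under both treatments.

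**Figure D3:**
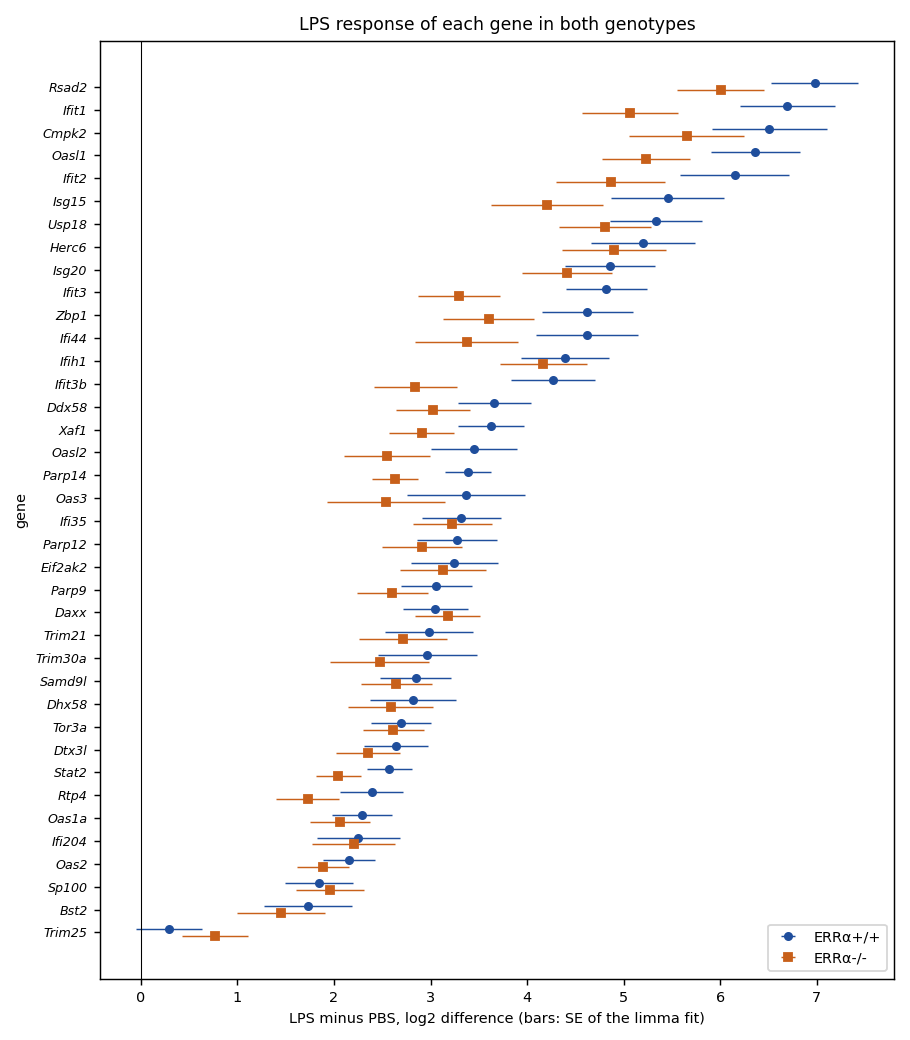
LPS response of each of the 38 members, as log2 difference LPS minus PBS (horizontal axis), in ERRα+/+ (blue circles) and ERRα-/- cells (orange squares); bars are the SE of the limma fit, n = 3 arrays per group. Genes are ordered by the ERRα+/+ response, from 0.29 for Trim25 to 6.98 for Rsad2, and 35 of the 38 squares lie left of their circle.

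ISG15 is a ubiquitin-like protein that is joined to viral and host proteins, Usp18 removes it and restrains the interferon receptor, and Herc6 is the mouse ligase that attaches it. Isg15 was at 3.02, 4.35 and 4.69 under PBS and 8.26, 10.00 and 10.17 under LPS in ERRα+/+ cells. Its ERRα-/- arrays gave 6.14, 5.58 and 5.55 and 9.10, 10.35 and 10.43. The rise was 5.45 ± 0.58 in ERRα+/+ cells and 4.21 ± 0.58 in ERRα-/- cells, and all 3 ERRα-/- PBS arrays lay above those of ERRα+/+ cells.

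Usp18 read 1.57, 1.88 and 2.00 and 6.06, 7.64 and 7.74 in ERRα+/+ cells under PBS and LPS, and 3.44, 2.80 and 2.64 and 6.89, 8.27 and 8.14 in ERRα-/- cells. That is a rise of 5.33 ± 0.48 and 4.80 ± 0.48. Herc6 rose by 5.20 ± 0.54 and 4.90 ± 0.54. Trim25, a ligase that activates the sensor Ddx58, differed by 0.29 ± 0.34 (limma, adjusted p = 0.508) and 0.77 ± 0.34 (limma, adjusted p = 0.0822). Its ERRα+/+ difference turned to -0.15 under quantile normalization, and with the replicate number as a block its ERRα-/- difference passed the threshold (limma, adjusted p = 0.00132), which made that count 38 of 38, against 32.5% of all genes.

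The OAS family makes 2′-5′ oligoadenylates that activate RNase L, and Oasl1 and Oasl2 are relatives of these enzymes. All 5 members rose in both genotypes. Oasl1 was 2.82, 1.55 and 2.27 under PBS and 7.93, 8.84 and 8.95 under LPS in ERRα+/+ cells, and 4.79, 3.45 and 3.30 and 8.61, 9.33 and 9.297 in ERRα-/- cells. Its rise of 6.36 ± 0.46 and 5.23 ± 0.46 was the largest of the family. Oasl2 was 4.38, 2.80 and 3.82 and 6.58, 7.36 and 7.42 in ERRα+/+ cells, and 5.77, 4.61 and 4.45 and 7.15, 7.69 and 7.62 in ERRα-/- cells. Both genes had their highest PBS value of each genotype on slide 1.

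Oas1a, one of the synthetases, gave 6.52, 6.21 and 6.41 and 7.98, 8.91 and 9.11 in ERRα+/+ cells and 7.28, 6.94 and 6.89 and 8.55, 9.40 and 9.36 in ERRα-/- cells. Oas2 gave 4.76, 5.20 and 5.08 and 6.69, 7.52 and 7.31, then 5.91, 5.47 and 5.46 and 7.03, 7.75 and 7.72, in the same order of groups. Oas2 was among the 5 smallest responses in both genotypes, at 2.16 ± 0.27 and 1.88 ± 0.27. Oas3 was 1.31, -0.38 and -0.36 under PBS and 3.03, 3.85 and 3.76 under LPS in ERRα+/+ cells, and 3.08, 0.88 and 0.80 and 4.29, 4.17 and 3.93 in ERRα-/- cells. The PBS values of Oas3 on slide 1 stood more than 1 log2 unit above those on slide 2 in both genotypes, so its PBS groups overlapped although each pair on a slide had the ERRα-/- array higher.

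The sensors detect foreign nucleic acid, and all 6 rose in both genotypes. Ddx58, or RIG-I, which reads 5′-triphosphate RNA, was 2.79, 3.21 and 3.19 under PBS and 5.87, 7.11 and 7.20 under LPS in ERRα+/+ cells, and 4.28, 4.16 and 4.04 and 6.43, 7.61 and 7.52 in ERRα-/- cells. Ifih1, or MDA5, which reads long double-stranded RNA, was 2.31, 2.49 and 2.87 and 6.01, 7.35 and 7.48, and 3.25, 3.27 and 3.15 and 6.38, 7.92 and 7.88, in the same order. Dhx58, or LGP2, which modulates both, was 1.96, 2.24 and 2.34 and 3.90, 5.44 and 5.65, and 3.08, 2.93 and 2.88 and 4.74, 5.98 and 5.93. The rises in ERRα+/+ and ERRα-/- cells were 3.66 ± 0.38 and 3.03 ± 0.38 for Ddx58, 4.39 ± 0.45 and 4.17 ± 0.45 for Ifih1, and 2.82 ± 0.44 and 2.59 ± 0.44 for Dhx58.

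Eif2ak2, or PKR, stops translation on binding double-stranded RNA. It was 1.48, 1.92 and 1.94 and 4.00, 5.56 and 5.52 in ERRα+/+ cells, and 2.31, 2.34 and 2.18 and 4.51, 5.96 and 5.76 in ERRα-/- cells. Zbp1, which senses Z-form nucleic acid and triggers necroptosis, was 1.41, 1.29 and 2.11 and 5.22, 6.62 and 6.85, and 4.12, 2.89 and 2.88 and 6.43, 7.18 and 7.07. Zbp1 showed the widest resting difference between genotypes among the sensors, with ERRα-/- PBS replicate 1 the highest of its group. Ifi204, a DNA sensor, had one of the 5 smallest responses in ERRα+/+ cells (2.25 ± 0.43) and rose by 2.21 ± 0.43 in ERRα-/- cells.

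Among the restriction factors and other effectors, all 9 measured of 11 listed rose in both genotypes. Bst2, or tetherin, holds budding virions at the cell surface. It was 4.76, 6.08 and 6.23 under PBS and 6.47, 7.78 and 8.02 under LPS in ERRα+/+ cells, and 6.74, 6.72 and 6.73 and 7.68, 8.42 and 8.44 in ERRα-/- cells. Replicate 1 was the lowest in both LPS groups and in the ERRα+/+ PBS group, whereas the ERRα-/- PBS arrays lay between 6.72 and 6.74. Its rise of 1.45 ± 0.46 in ERRα-/- cells lost its call under quantile normalization (limma, adjusted p = 0.0637) and when ERRα-/- PBS replicate 2 or 3 or ERRα-/- LPS replicate 2 or 3 was left out.

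Ifi44, an interferon-inducible protein that restricts some viruses, rose by 4.62 ± 0.53 and 3.37 ± 0.53, the largest differences of this group. Rtp4, a receptor chaperone, was among the 5 smallest responses in ERRα-/- cells (1.73 ± 0.32) and rose by 2.39 ± 0.32 in ERRα+/+ cells. Trim21, an antibody receptor in the cytosol, Trim30a, Samd9l, Xaf1, Ifi35 and Tor3a rose by 2.69 to 3.63 in ERRα+/+ and 2.48 to 3.23 in ERRα-/- cells. Xaf1 had a second probe with a smaller response, 2.02 against 3.63 in ERRα+/+ cells.

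The ADP-ribosyltransferases Parp9, Parp12 and Parp14 and the ligase Dtx3l, which works with Parp9, all rose, by 2.64 to 3.39 in ERRα+/+ and 2.35 to 2.91 in ERRα-/- cells. Stat2, the ISGF3 subunit, rose by 2.57 ± 0.23 and 2.04 ± 0.23. Sp100, a nuclear body protein, had one of the 5 smallest responses in both genotypes at 1.84 ± 0.35 and 1.96 ± 0.35. Daxx, a histone chaperone of the same bodies, rose by 3.05 ± 0.34 and 3.18 ± 0.34. Members with an ISRE core match in their window (14) had a median response of 3.51 in ERRα+/+ cells. Those with a window but no match (15) had one of 3.45, and the ranges of 1.73 to 6.98 and 0.29 to 6.51 overlapped. In ERRα-/- cells the order was reversed, with medians of 2.94 and 3.18 and overlapping ranges of 1.45 to 6.00 and 0.77 to 5.65.

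Under PBS the members stood higher in ERRα-/- than in ERRα+/+ cells, but no single gene passed the test. The limma fit called 0 of 38 members (0.0686% of all genes were called higher), and 21 members had an unadjusted p under 0.05, compared with 6.57% of all genes. The median difference, ERRα-/- minus ERRα+/+, was 0.87 for the members and -0.02 for all genes, and it was above 0 for 37 of 38 members and 45.6% of all genes. In 33 of 38 members all 3 ERRα-/- arrays lay above all 3 ERRα+/+ arrays, as they did for 5.83% of all genes; the exceptions were Trim25, Oas3, Trim21, Trim30a and Tor3a. Within replicate pairs 37 members were higher in 3 of 3 pairs, against 16.9% of all genes, with Trim25 the exception.

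By pair, the median of the members was 1.27 for replicate 1, 0.94 for replicate 2 and 0.49 for replicate 3. The sign was the same in all pairs and the size was not. ERRα-/- PBS replicate 1, in the pair with the largest median, also had the highest Esrra signal of its group. The part of that signal in the size was not tested. ERRα+/+ PBS replicates 2 and 3 were the arrays with the widest scatter between repeated spots. Without both, and with slide as a block, a setting added after the data had been seen, the median was 0.67. That fit leaves 1 ERRα+/+ PBS array, on slide 1, and takes its slide term from the other groups. The pair on slide 1 itself gave 1.27, so the 0.67 does not show what the removed arrays contributed.

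**Figure D4:**
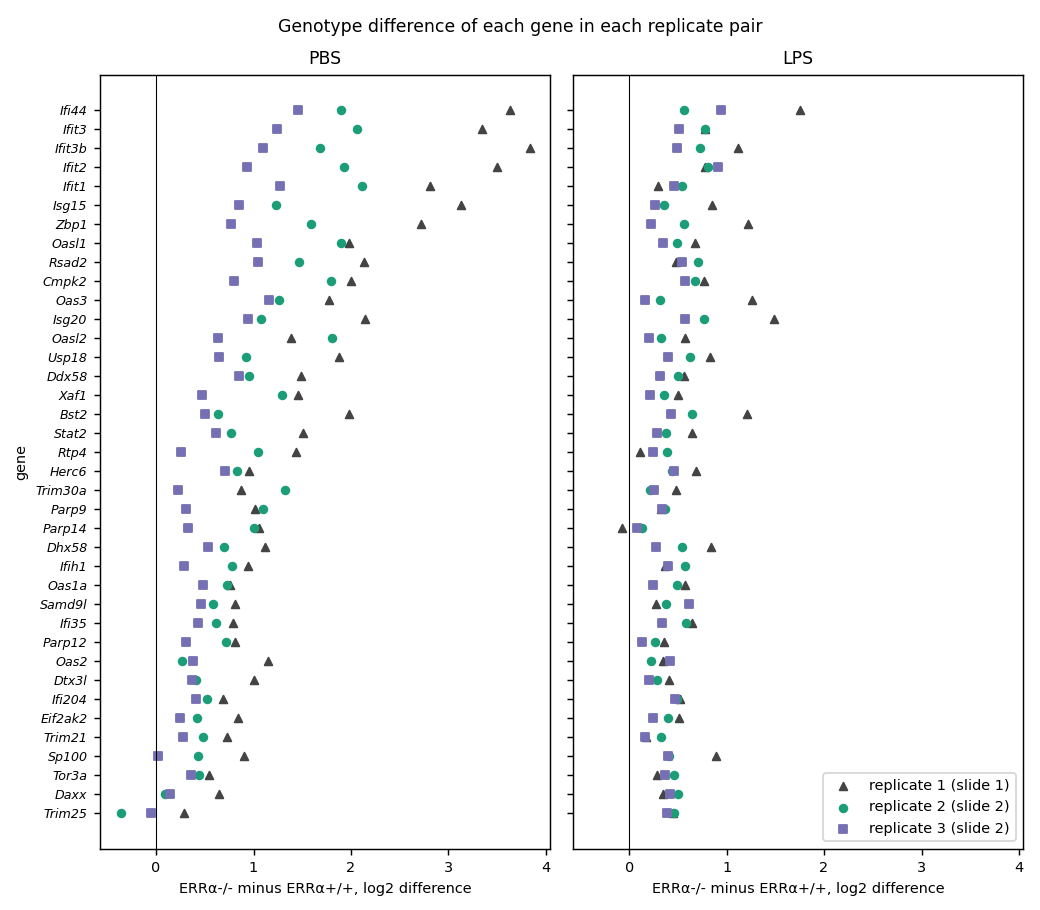
Log2 difference ERRα-/- minus ERRα+/+ of each of the 38 members in each replicate pair, under PBS (left) and under LPS (right); triangles are replicate 1 on slide 1, circles and squares replicates 2 and 3 on slide 2. Under PBS 37 members lie above 0 in 3 of 3 pairs, and under LPS 37 do, with medians of 1.27, 0.94 and 0.49 under PBS and 0.57, 0.48 and 0.36 under LPS.

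The largest resting differences were those of Ifi44 (2.33 ± 0.53; limma, adjusted p = 0.132), Ifit3 (2.22 ± 0.42; adjusted p = 0.062), Ifit3b (2.20 ± 0.43; adjusted p = 0.0721), Ifit2 (2.12 ± 0.57; adjusted p = 0.221) and Ifit1 (2.07 ± 0.50; adjusted p = 0.158). Stat2, with 0.96 ± 0.23, had 1 of the 5 smallest p-values (limma, adjusted p = 0.158). Ifi44 was -1.07, -0.29 and -0.16 in ERRα+/+ cells and 2.56, 1.61 and 1.30 in ERRα-/- cells under PBS, and 2.87, 4.89 and 4.57 and 4.62, 5.46 and 5.51 under LPS. Its ERRα-/- PBS arrays all stood above its ERRα+/+ PBS arrays. Stat2 was 3.41, 3.64 and 3.73 and 4.91, 4.41 and 4.35 under PBS, also without overlap. By role the median was 2.16 for the IFIT family, 1.53 for the nucleotide and RNA effectors, 1.28 for the OAS family, 0.99 for the ISG15 system, 0.81 for the restriction factors, 0.73 for the sensors, 0.70 for the PARP group and 0.45 for the transcription and chromatin genes.

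Arrays of different groups on the same slide deviated together. With the replicate number as a block 2 members passed under PBS, Ifit1 (limma, adjusted p = 0.0243) and Ifit3 (adjusted p = 0.0312), against 0.366% of all genes. With slide as a block 4 did, Ifit1, Ifit3, Ifit3b and Ifi44 (0.663% of all genes). Within slide 2 alone, with 2 arrays per group, 23 members were called higher, against 4.62% of all genes. These 23 included all 4 IFIT genes, Isg15, Usp18, Herc6, Rsad2, Cmpk2 and Isg20, and left out Ifih1, Eif2ak2, Parp9, Parp12 and Parp14 among others.

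The limma fit called none of the measured markers of other cells between genotypes under PBS, but the arrays of the genotypes lay apart in the sums of 2 lists. The 7 neutrophil markers measured summed to 305 to 441 in ERRα+/+ and 231 to 286 in ERRα-/- cells, and the 5 stromal markers to 4.63 to 9.60 and 3.05 to 3.44, on the linear scale of signal relative to the 75th percentile. Their median log2 differences were -0.68 and -1.15, ERRα-/- minus ERRα+/+. Within slide 2 alone 3 of the 7 neutrophil and 2 of the 5 stromal markers were called lower, against 4.9% of all genes. The 6 plasmacytoid dendritic cell markers summed to 98.0 and 225 on the 2 ERRα+/+ arrays with all values and 250 to 268 on the ERRα-/- arrays, a sum carried by Siglech, whose spots were flagged on ERRα+/+ PBS replicate 3. The sums of the conventional dendritic cell list (0.16 to 0.48 and 0.23 to 0.37) and of the B, T and NK cell list (9.19 to 9.71 and 8.29 to 11.3) overlapped. The part of these markers in the genotype difference was not tested.

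Under LPS the difference between genotypes was smaller and no member passed. The limma fit called 0 of 38 members (0.0763% of all genes were called higher), and 0 had an unadjusted p under 0.05, compared with 6.24% of all genes. The median difference was 0.45, against -0.01 for all genes, and it was above 0 for 38 of 38 members and 48.9% of all genes. It was higher in ERRα-/- cells in 3 of 3 pairs for 37 members (24.9% of all genes), Parp14 being the exception. The arrays of the genotypes did not overlap for 2 members, Ifit3b and Oas3 (4.48% of all genes). The 5 smallest p-values were those of Ifi44 (1.09 ± 0.53; limma, adjusted p = 0.847), Isg20 (0.94 ± 0.47), Stat2 (0.43 ± 0.23), Ifit3b (0.78 ± 0.43) and Bst2 (0.76 ± 0.46). The replicate block called 0 members (0.32% of all genes).

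Slide 1 lay below slide 2 within each LPS group. ERRα+/+ LPS arrays had member medians of 5.94, 7.05 and 7.05, and ERRα-/- LPS arrays 6.45, 7.65 and 7.62. Within slide 2 alone 15 members were called higher in ERRα-/- cells under LPS, among them Ifit3b, Usp18, Herc6, Rsad2, Isg20, Ddx58, Bst2 and Ifi44, against 8.13% of all genes. Leaving out ERRα+/+ LPS replicate 1 moved the median of the members to 0.07, and leaving out ERRα-/- LPS replicate 1 moved it to 0.83; each leaves a group on slide 2 alone. Without ERRα+/+ LPS replicate 2 or 3 it was 0.66 or 0.69, and without ERRα-/- LPS replicate 2 or 3 it was 0.28 or 0.30.

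The limma fit called none of the measured markers of other cells between genotypes under LPS either. The neutrophil sum was 266 to 534 in ERRα+/+ and 320 to 495 in ERRα-/- cells, the stromal sum 3.86 to 6.61 and 2.44 to 4.34, and both overlapped. Within slide 2 alone 5 of the 7 neutrophil markers were called lower in ERRα-/- cells under LPS (median -0.80; 8.76% of all genes were called lower), and 6 of 7 averaged over treatments (10.5%). ERRα-/- LPS replicate 1 stood apart in Ms4a1, a B cell surface protein, at 2.07 against -1.13 and -1.68. It also stood apart in Spib, a transcription factor of plasmacytoid dendritic cells, at 1.86 against -0.07 and -0.31. Ms4a1 was also highest on replicate 1 among the ERRα-/- PBS arrays, at 0.01, -2.10 and -2.21. These markers were named after their values were seen, and their part in the genotype difference was not tested.

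Averaged over PBS and LPS, 2 of 38 members were higher in ERRα-/- cells by the limma fit, Ifit3 (1.45 ± 0.30; adjusted p = 0.0444) and Ifit3b (1.49 ± 0.30; adjusted p = 0.0432), against 0.397% of all genes. Both were higher in ERRα-/- cells in 3 of 3 pairs under each treatment, and both are the near-copies whose probes may not be independent. Ifi44 (1.71 ± 0.37; adjusted p = 0.0607) and Stat2 (0.70 ± 0.16; adjusted p = 0.0835) missed the threshold. Quantile normalization called Ifit3, Ifi44 and Stat2 and lost Ifit3b (limma, adjusted p = 0.0546), and without a filter on dim probes neither Ifit3 (0.098) nor Ifit3b (0.097) passed. With the replicate block 5 passed, namely Ifit1, Ifit3, Ifit3b, Trim21 and Ifi44 (1.14% of all genes). With slide as a block 9 did (1.66% of all genes), and within slide 2 32 did (9.88% of all genes), all but Trim25, Oasl2, Trim30a, Rtp4, Parp9 and Parp14. Neither Ifit3 nor Ifit3b was called in every fit that left out 1 array; the count was 0 without any 1 of 9 arrays, 1 without ERRα+/+ PBS replicate 1, 2 without ERRα+/+ PBS replicate 3 and 5 without ERRα-/- LPS replicate 1.

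The LPS response itself was compared between genotypes as the difference of the responses. It was smaller in ERRα-/- cells for 35 of 38 members, and for 48.6% of all genes, with a median of -0.47 for the members and 0.01 for all genes. The limma fit called 0 of 38 members and 0 of all genes in either direction; 4 members had an unadjusted p under 0.05, among 292 of all genes. These were Ifit1 (-1.63 ± 0.70), Ifit3 (-1.53 ± 0.60), Ifit3b (-1.42 ± 0.61) and Parp14 (-0.75 ± 0.34), and Oasl1 followed with -1.13 ± 0.65 (limma, adjusted p = 1.0 for each of the 5). Ifit1 gave -2.52, -1.58 and -0.81 in the 3 pairs, Ifit3 gave -2.57, -1.28 and -0.73, and Oasl1 gave -1.30, -1.40 and -0.69. The response was smaller in ERRα-/- cells in 3 of 3 pairs for 27 members (20.7% of all genes). By pair the median of the members was -0.72, -0.42 and -0.23. Leaving out 1 array moved the median from -0.47 to as little as -0.09, without ERRα-/- LPS replicate 1, and to -0.92 without ERRα+/+ LPS replicate 1. Without ERRα+/+ LPS replicate 2 or 3 it was -0.25 or -0.23. Within slide 2 alone 1 member was called, Oas3 (-0.97; limma, adjusted p = 0.0294), against 2.07% of all genes called lower.

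Both comparisons of genotype and the difference of responses rest on the same arrays. The members' difference was larger under PBS than under LPS in 35 of 38, which is the same count seen from the other side. Of the IFIT genes, the PBS differences of 2.07 to 2.22 stood beside LPS differences of 0.43 to 0.84, and of the sensors 0.50 to 1.69 beside 0.38 to 0.67. Tor3a had a second probe with the opposite sign, -0.15 under PBS and -0.06 under LPS, where the tested probe gave 0.45 and 0.37.

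Of 37 listed genes of the interferon pathway 36 were tested, Ifna4 not being above background. In ERRα+/+ cells 22 rose and 3 fell with LPS (22.2% of all genes rose), and in ERRα-/- cells 22 rose and 3 fell (25.1%). Ifnb1, the first interferon made after Tlr4 activation, was not well above background on any PBS array. Its signal under LPS was -0.18, -0.41 and -0.10 in ERRα+/+ cells and 0.26, 0.64 and 0.68 in ERRα-/- cells, without overlap, and the rise over PBS was at least 23.4-fold and at least 34.1-fold. The bound uses the lowest signal of a probe well above background on each PBS array, so the 2 bounds do not rank the genotypes. Taken over the PBS signals as measured, the rise was 93.7-fold in ERRα+/+ and 79.7-fold in ERRα-/- cells.

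**Figure D5:**
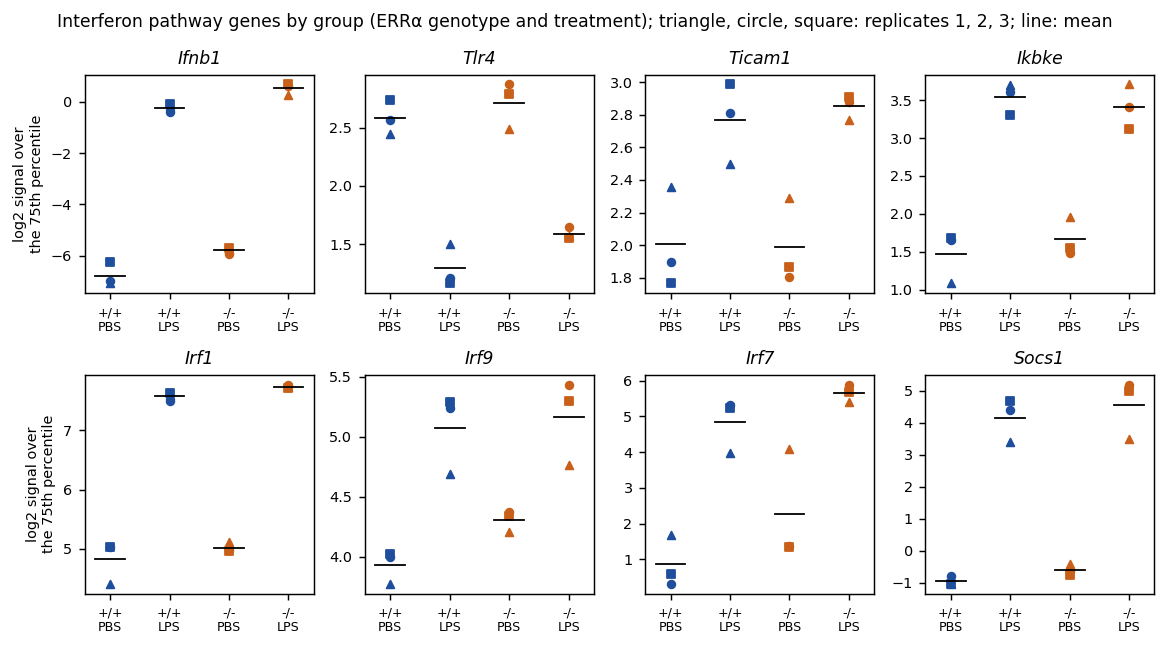
Log2 signal over the array's 75th percentile of 8 pathway genes in the 4 groups (blue ERRα+/+, orange ERRα-/-); triangles, circles and squares are replicates 1, 2 and 3 and lines are means. The vertical scale differs between genes, and the PBS values of Ifnb1 are not above background; under LPS Ifnb1 lies higher in all 3 ERRα-/- arrays (0.26 to 0.68) than in the ERRα+/+ arrays (-0.41 to -0.10).

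Under LPS Ifnb1 was 0.75 ± 0.22 higher in ERRα-/- cells, which missed the threshold (limma, adjusted p = 0.366; 0.0534 within slide 2). The average over both treatments passed (limma, adjusted p = 0.0249), but it draws partly on PBS signals that were not above background on any array, and it lost the call under normexp background correction. Of the receptor genes, Ifnar1 differed with LPS by 0.58 ± 0.41 and 0.13 ± 0.41 and Ifnar2 by 0.59 ± 0.26 and 0.41 ± 0.26, none of which passed the limma fit. With the replicate block Ifnar2 passed in ERRα+/+ cells (limma, adjusted p = 0.0357). Within slide 2 Ifnar1 passed in ERRα+/+ cells (limma, adjusted p = 0.00722) and Ifnar2 in both genotypes (0.00978 and 0.0266). Tlr4, the LPS receptor, fell by 1.29 ± 0.16 and 1.13 ± 0.16. It was 2.45, 2.57 and 2.74 in ERRα+/+ cells and 2.48, 2.87 and 2.79 in ERRα-/- cells under PBS.

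The adaptor Ticam1 rose by 0.76 ± 0.20 and 0.87 ± 0.20, and the kinases Tbk1 by 1.35 ± 0.31 and 1.47 ± 0.31 and Ikbke by 2.07 ± 0.23 and 1.75 ± 0.23. The difference of Irf3, whose product is switched on by phosphorylation, was 0.09 ± 0.14 and -0.06 ± 0.14 and passed in neither genotype. Irf1 rose by 2.76 ± 0.17 and 2.72 ± 0.17, and Irf9 by 1.14 ± 0.21 and 0.86 ± 0.21. Irf7 was 1.68, 0.32 and 0.58 in ERRα+/+ cells and 4.09, 1.38 and 1.35 in ERRα-/- cells under PBS, and 3.97, 5.33 and 5.23 and 5.40, 5.88 and 5.67 under LPS. In each PBS group replicate 1 of Irf7 was the highest, and its rise was 3.99 ± 0.69 and 3.38 ± 0.69. The brakes Socs1 and Socs3 rose by 5.11 ± 0.43 and 7.31 ± 0.73 in ERRα+/+ cells and 5.18 ± 0.43 and 6.84 ± 0.73 in ERRα-/- cells.

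Between genotypes the limma fit called 0 of the 36 pathway genes under PBS and 0 under LPS. An unadjusted p under 0.05 was found for 7 and 3, against 6.57% and 6.24% of all genes. The median difference of the pathway genes was 0.20 under PBS, with 28 of 36 above 0 (45.6% of all genes). It was 0.16 under LPS, with 25 of 36 above 0 (48.9% of all genes). The replicate block called Ifnb1 under PBS (limma, adjusted p = 0.0372), against 0.366% of all genes called higher. There the signal of Ifnb1 was not above background. Under LPS the block called Sting1, the adaptor of cytosolic DNA sensing, against 0.32% of all genes called higher. This gene was 0.89 ± 0.22 higher in ERRα-/- cells (limma, adjusted p = 0.216, and 0.032 with the block). Sting1 was 2.53, 2.82 and 2.98 in ERRα+/+ cells and 3.59, 3.77 and 3.65 in ERRα-/- cells under LPS, without overlap, and well above background on every array. Averaged over treatments the limma fit called 1 pathway gene, Ifnb1, against 0.397% of all genes called higher. The block called 3, Ifnb1, Sting1 and Uba7, the enzyme that activates ISG15, against 1.14% of all genes. On the arrays of slide 2 alone 7 of 36 were called higher under PBS, 9 under LPS and 12 averaged, against 4.62%, 8.13% and 9.88% of all genes. Sting1 and Uba7 were named after their values were seen.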

How the data were processed

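The deposited intensity values of 12 one-colour arrays, 4 groups of 3, were analysed. Per the file headers, Agilent Feature Extraction 11.5.1.1 made the processed signal intensity by subtracting background and detrending within each array, with no scaling between arrays, whereas version 9.3.2.1 stands in the submitters' processing notes. The median intensity of each spot and of its local background, and flags of 0 or 1 (other), were deposited per the file headers. The labels' protocols name a different array format for replicate 1, but all 12 files hold the same 62976 spots. The intensities the authors deposited as a value table were those of the processed signal, without exception, on each array.

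Groups came from the labels. Spots flagged as non-uniform were left out (35 probe values, none of a member), spots of a probe were averaged, and each array's 75th percentile was subtracted from its log2 signal. Names came from matching probes by transcript accession to RefSeq genes of assembly GRCm38.p6: 27509 probes named 20887 genes and 28172 stayed unnamed. Probes were kept where some group had all 3 of its arrays well above background, and the probe with the highest mean stood for its gene (13113 genes). The limma 3.58.1 package in R 4.3.3 (data read with the data.table package, version 1.17.8) fitted 1 mean per group and 6 contrasts, with Benjamini-Hochberg adjusted p-values over the 13113 genes and calls at an adjusted p under 0.05; it was tested on simulated data. Tables and figures used Python 3.11.15, pandas 2.3.3 and matplotlib 3.10.9. Precision is limited by the number of arrays.

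Same-numbered arrays of different groups had deviations from the group means that correlated at 0.144 to 0.783. Arrays of slide 1 and slide 2 correlated at -0.711 to -0.171. Deviations cancel out within a group, so positive values for replicate 1 force negative values between the slides on average. The negative values are thus not separate evidence. Replicates 2 and 3 of different groups, which share a slide but not a number, correlated at 0.129 to 0.555 (median 0.24). Same-numbered arrays had a median of 0.228 for replicate 2 and 0.298 for replicate 3. Replicate 1 thus deviated together across the groups, and it alone lay on slide 1, so slide and replicate 1 cannot be told apart. Whether the numbers also pair the arrays of slide 2 cannot be told from the deviations.

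The members and gene lists were chosen with earlier results of these data known. Named were every IFIT and OAS gene, Isg15, Usp18, Rsad2, Cmpk2, Bst2, 5 sensors, the 5 largest and 5 smallest LPS responses, all genotype calls or the 5 smallest p-values, and the pathway genes given by name (1 listed gene is not reported here); others named for 2 probes or their group's range were chosen after their values were seen. Mx1 and Mx2 were not analysed here. Alternatives were quantile normalization, normexp (offset 50), other filters, the mean of a gene's probes, slide or replicate blocks, slide 2 alone, the deposited table and each array left out.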

Additional observations from a re-analysis of the deposited data

How the results depend on the processing

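The counts of members called with LPS held within 1.5 times under every alternative run. Quantile normalization moved the median LPS difference of all genes to -0.14 in ERRα+/+ and -0.15 in ERRα-/- cells, and the members' medians to 3.03 and 2.45; it turned Trim25 in ERRα+/+ cells to -0.147, and leaving out ERRα+/+ PBS replicate 1 also reversed it (-0.0475 to 0.538 with each array left out). The number of members called higher in ERRα-/- cells under PBS, 0, became 1 with quantile normalization, 2 with normexp and 2 with the mean of a gene's probes. It became 2 with the replicate block, 4 with slide as a block, 23 within slide 2 and 0 to 2 with each array left out. Under LPS it became 15 within slide 2; the median was 0.331 with quantile normalization and 0.0739 to 0.832 with each array left out. Averaged over treatments, the count of 2 became 0 with no filter, 5 with the replicate block, 9 with slide as a block, 32 within slide 2 and 0 to 5 with each array left out. The difference of responses had 1 member called lower within slide 2 and a median of -0.922 to -0.0894 with each array left out. Of the pathway genes, 5 were called lower with LPS in ERRα-/- cells under quantile normalization, and the call for the averaged genotype fell to 0 with normexp. Of the other interferon-stimulated genes, 1 was called lower in ERRα+/+ cells with LPS, 1 in ERRα-/- cells and 1 in the averaged genotype comparison under quantile normalization. The cause of these changes was not tested. The replicate block left the other counts of members as they were, apart from 38 with LPS in ERRα-/- cells. Of the single genes named, 750 values kept direction and side of the threshold, 32 passed newly, 30 no longer passed and 2 reversed. Within slide 2 and in the fits without 1 array, a group had 2 arrays.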

Other observations

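A second list held 40 further interferon-stimulated genes outside the antiviral set, of which 34 were tested. With LPS 26 of 34 rose in ERRα+/+ cells (limma; 22.2% of all genes rose) and 30 of 34 in ERRα-/- cells (25.1%), with medians of 1.92 and 1.99, against 3.34 and 2.88 for the antiviral members. Slfn2, a schlafen protein that keeps immune cells quiescent, rose by 2.90 ± 0.30 and 2.76 ± 0.30. Ifitm3, which blocks viral entry from endosomes, rose by 1.53 ± 0.40 and 1.20 ± 0.40. Oas1g, a relative of Oas1a, rose by 3.89 ± 0.41 and 2.72 ± 0.41.

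Under PBS the limma fit called 0 of these 34 genes between genotypes, with 7 at an unadjusted p under 0.05 (6.57% of all genes). The ERRα-/- minus ERRα+/+ difference was above 0 for 30 of 34 and for 45.6% of all genes (median 0.50, against 0.87 for the antiviral members). Oas1g differed by 1.61 ± 0.41 (adjusted p = 0.178) and Ifitm3 by 1.06 ± 0.40 (adjusted p = 0.531). Under LPS 0 of 34 were called, with 2 at an unadjusted p under 0.05 (6.24% of all genes), and the median was 0.40. The ERRα-/- minus ERRα+/+ difference in LPS response had a median of -0.04 in this list, with 16 of 34 above 0, where the antiviral members had a median of -0.47. On slide 2 alone 11 of the 34 were called higher and 1 lower under PBS, against 4.62% and 4.9% of all genes. On that slide 16 were called higher under LPS (8.13% of all genes). Averaged over treatments there, 20 were higher and 1 lower (9.88% and 10.5% of all genes). The replicate block called 0 under PBS, 0 under LPS, and 1 higher and 1 lower averaged. Of all genes it called 0.366%, 0.32% and 1.14% higher. Whether the lists differ was not tested. Slfn2, Ifitm3 and Oas1g were chosen after their values were seen.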
